A study of Mus musculus with 47 samples.

Results

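The proteasome genes of mouse intestine were followed in tissue and in organoid cultures. They were taken by symbol, as every gene named Psma, Psmb, Psmc, Psmd, Psme, Psmf or Psmg with a number, without pseudogene symbols, which gave 50 of the 24062 genes in the count table. RNA was depleted of ribosomal RNA and sequenced as single reads. The labels give an age of 15 to 19 weeks for all 47 libraries, organoids included. The 39 tissue libraries were of 3 kinds. These were mucosa of wild-type mice, normal mucosa of mice with the APC min genotype (Min mucosa), and adenoma from that genotype. Min is a mutant allele of the tumour suppressor Apc that gives rise to intestinal adenomas.

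Backgrounds were C57BL/6 (B6), a C57BL/6 strain whose chromosome 5 comes from PWD/Ph (the consomic C5), its cross to B6 (C5F1), the F1 between B6 and PWD/Ph (B6xPWD), and PWD/Ph itself (PWD), for which wild-type mucosa alone was sampled. Each of the 13 tissue groups had 3 libraries. The 8 organoid libraries all carried the APC min genotype and were B6 or C5 cultures, control or treated with 5-aza-cytidine (AZA), an inhibitor of DNA methyltransferases, with 2 libraries in each of the 4 groups. Nothing in the labels says that replicates came from different animals or cultures. The p-values therefore measure only the spread between these samples, which may be technical.

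The 26S proteasome degrades proteins tagged with ubiquitin. Its 20S core is a barrel of alpha and beta rings whose beta subunits Psmb5, Psmb6 and Psmb7 cut the substrate, and its 19S cap recognises, unfolds and feeds the substrate through an ATPase ring and a set of non-ATPase subunits. Interferon induces the replacement subunits Psmb8, Psmb9 and Psmb10, which form the immunoproteasome, and the PA28 activator of Psme1 and Psme2. Immunoproteasomes are abundant in leukocytes and favour peptides for MHC class I presentation.

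The members comprised 7 alpha subunits (Psma1 to Psma7), 4 structural beta subunits, 3 constitutive and 3 immune catalytic subunits, 4 chaperones of 20S assembly (Psmg1 to Psmg4), 6 ATPases (Psmc1 to Psmc6), 11 non-ATPase subunits of the cap, 3 chaperones of 19S assembly (Psmd5, Psmd9 and Psmd10), 2 PA28 subunits, the further activators Psme3 (PA28 gamma) and Psme4 (PA200), and the inhibitor Psmf1. Psmc3ip entered by its symbol alone and is a meiotic recombination factor. The testis subunit Psma8, with 39 counts in all libraries together, and the thymus subunit Psmb11, with 21, did not pass the filter on low counts. The other 48 members passed it in tissue and in organoids.

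The last member, Psme2b (chr11:48945345-48946410 in mm10), is a retrocopy of Psme2 (chr14:55587440-55591101). Over 717 coding bases the copies differed at 5 positions, an identity of 99.3%. The stretch from coding base 484 to 543 is shown, since it holds 3 of the 5 differences, given in capitals. It shows how few bases of the coding part can assign a read to either gene.
Psme2: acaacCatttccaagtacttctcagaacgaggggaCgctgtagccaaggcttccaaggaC
Psme2b: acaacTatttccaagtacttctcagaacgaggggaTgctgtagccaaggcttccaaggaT
In tissue Psme2b had 3.57 to 8.42 times the counts of Psme2 in a library. In organoids the ratio was 0.691 to 1.57. Of the 36-base stretches of the whole transcripts, 64.4% of those of Psme2 and 75.8% of those of Psme2b were shared with other genes. Psme2b also overlaps exons of 9930111J21Rik1 on the same strand and shares stretches with 9930111J21Rik2. How reads matching several genes were assigned is not stated, so Psme2 and Psme2b are given as uncertain throughout. By the 36-base stretches of their transcripts, 22 members shared none with another gene, and 5 shared more than 50% (Psma5, Psmb3, Psmb5, Psme2 and Psme2b). Psmb8 overlaps exons of the antisense gene Gm20496 (7.53% of its 36-base stretches) and Psmb9 those of Tap1 (13.4%), each on the opposite strand. The strand setting of the counting is not given in the sources used here, so reads of Psmb8 and Psmb9 cannot be told apart from those of these partners there.

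Sequencing depth, as counts assigned to genes, was 2726505 to 20070696 in the tissue libraries and 4389898 to 8373764 in the organoid libraries. The members together had 2758 to 64416 counts in a tissue library and 27521 to 53407 in an organoid library. The ribosomal precursor Rn45s took 16.4 to 72.7% of gene counts in tissue and 0.760 to 1.61% in organoids. Without Rn45s, members made up 0.276 to 0.503% of the counts in tissue and 0.525 to 0.659% in organoids, so the ranges did not overlap. Levels are given as TMM-normalised CPM, the counts of a gene scaled to a common library size, and differences are fitted log2 changes with their standard error (SE).

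The level of each member was compared per kilobase of its longest annotated coding transcript. Which transcript was expressed was not determined, so the order of members also depends on that choice. In tissue the highest were Psmb4, a structural beta subunit, at 85.2 ± 12.8 CPM per kb (SD, n = 39), and the catalytic subunit Psmb6 at 77.4 ± 14.5 CPM per kb. Psme2b, whose counts are uncertain, came next at 76.8 ± 37.6 CPM per kb. Psmb10 followed at 76.1 ± 34.6 CPM per kb, and these neighbours did not differ beyond their spread. Psmb8 stood at 41.7 ± 26.8 and Psmb9 at 24.5 ± 15.9 CPM per kb, while the constitutive Psmb5 stood at 12.6 ± 4.69 CPM per kb. Psmb5 shared 70.25% of its 36-base stretches with other genes. How such reads were counted is not stated, so its level relative to the immune subunits is uncertain. In control organoids the order was led by the alpha subunits Psma4 at 147 ± 5.59 and Psma6 at 134 ± 4.76 CPM per kb (n = 4). There Psmb10 was at 8.82 ± 1.64, Psmb8 at 1.56 ± 1.29 and Psmb9 at 0.894 ± 0.635 CPM per kb, the last at rank 48 of the 50 members. Psma4 shared 41.8% of its 36-base stretches with other genes and overlaps exons of AY074887 on the opposite strand. Its level and its differences below are therefore uncertain too.

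Adenoma was compared with Min mucosa of the same backgrounds to ask which genes differ in tumour tissue. The immunoproteasome subunits and the PA28 subunits were lower in adenoma. Of the non-ATPase subunits of the 19S cap 6 of 11 were modestly higher, where 23.7% of all genes were called higher. Over the mean of 4 backgrounds 11 of 48 tested members were higher and 7 lower at an adjusted p under 0.05 (edgeR's quasi-likelihood test, Benjamini-Hochberg adjusted over all genes). This fit did not pair adenoma and mucosa libraries by replicate number. Of all 13657 genes tested, 45.2% were called, 23.7% higher and 21.5% lower, so the share of members called was near that of all genes. The median log2 difference was 0.10 over the members and 0.01 over all genes.

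Psmb9 and Psmb8 had the lowest estimates of all members, and Psmb10 was also lower. Psmb8 (chr17:34198195-34201454), the replacement for Psmb5, had 13.2 CPM in the lowest, 32.5 in the median and 65.4 in the highest of the 12 adenoma libraries. In the 12 Min mucosa libraries the lowest was 19.9, the median 97.4 and the highest 134 CPM. The overlap came from the 3 B6xPWD mucosa libraries, and the other 9 mucosa libraries lay above every adenoma library. Psmb8 fell by 1.22 ± 0.26 on the log2 scale (edgeR adjusted p = 0.00022), from 87.2 ± 40.8 to 34.4 ± 16.8 CPM (SD, n = 12 each).

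Psmb9 (chr17:34182030-34187330), the replacement for Psmb6, had 6.31, 16.1 and 31.5 CPM as the lowest, median and highest adenoma library, against 12.4, 36.1 and 81 CPM in Min mucosa. The adenoma median lay near the lower end of the mucosa range. Psmb9 fell by 1.27 ± 0.24 on the log2 scale (edgeR adjusted p = 6.58e-05). Psmb10 (chr8:105935728-105938392), the replacement for Psmb7, ranged from 46.2 to 93.4 CPM in adenoma with a median of 65.6, and from 53.6 to 200.1 CPM in Min mucosa with a median of 108. It fell by 0.67 ± 0.15 (edgeR adjusted p = 0.000465), a smaller difference than those of Psmb8 and Psmb9.

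The constitutive partners did not move the same way. Psmb5 (chr14:54614120-54617995), the chymotrypsin-like subunit, rose from 9.79 ± 2.92 CPM to 13.2 ± 4.83 CPM in adenoma (log2 difference 0.42 ± 0.17, edgeR adjusted p = 0.0406). That call was lost in 13 of 24 fits without 1 library. Psmb6, the caspase-like subunit, was at 57.2 ± 11.9 CPM in Min mucosa and 61.4 ± 13.1 CPM in adenoma (log2 difference 0.11 ± 0.10, edgeR adjusted p = 0.42). Psmb7, the trypsin-like subunit, was at 52 ± 5.66 and 58.3 ± 9.13 CPM (0.17 ± 0.08, edgeR adjusted p = 0.0771). As a description, the median count ratio of Psmb8 to Psmb5 was 8.59 in Min mucosa and 1.81 in adenoma, that of Psmb9 to Psmb6 was 0.701 and 0.259, and that of Psmb10 to Psmb7 was 2.4 and 1.12.

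**Figure D1:**
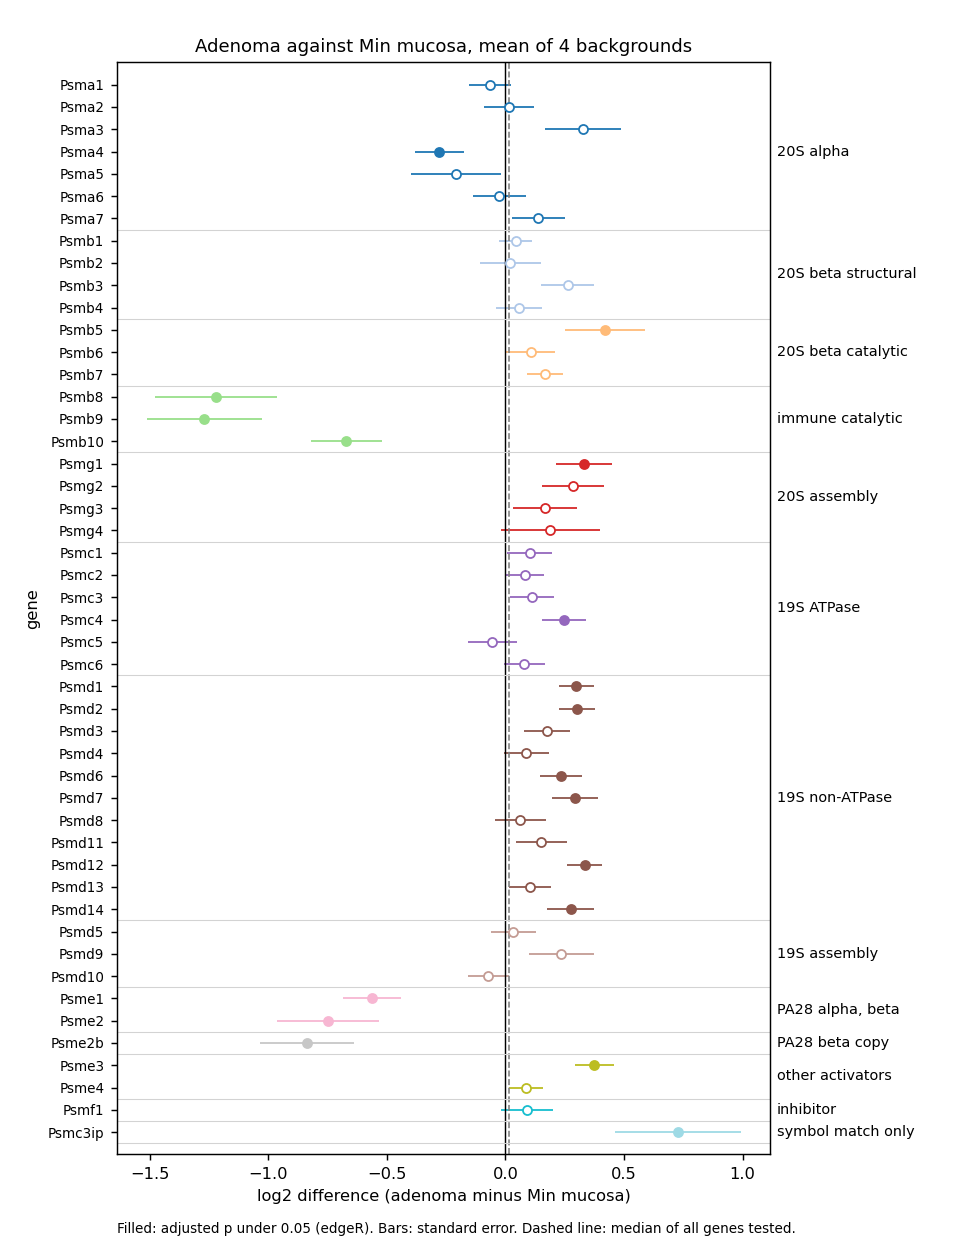
Log2 difference of adenoma minus Min mucosa, fitted as the mean of 4 backgrounds, for each of the 48 tested members (rows, grouped by role). Points are estimates, bars the standard error, filled points an edgeR adjusted p under 0.05, and the dashed line the median of all genes; Psmb8, Psmb9, Psmb10, Psme1, Psme2 and Psme2b lie left of -0.5.

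The PA28 activator opens the 20S core without ubiquitin. Psme1 (PA28 alpha; chr14:55578494-55581527) had 20.9, 31.2 and 42.1 CPM as the lowest, median and highest adenoma library and 30, 41.2 and 68.2 CPM in Min mucosa. It fell by 0.56 ± 0.12 on the log2 scale (edgeR adjusted p = 0.000353), although the ranges overlapped. Psme2 (PA28 beta) fell by 0.75 ± 0.22 (edgeR adjusted p = 0.00505) and its copy Psme2b by 0.84 ± 0.20 (edgeR adjusted p = 0.000858). These 2 readings are not independent, since their reads can be exchanged. Reads of Psme2b may also come from 9930111J21Rik1, whose exons overlap it. The nuclear activator Psme3 went the other way, from 72 ± 10.9 to 92.9 ± 13 CPM, with a log2 difference of 0.38 ± 0.08 (edgeR adjusted p = 0.000323). Psme4 and Psmf1 were not called, at log2 differences of 0.09 ± 0.07 and 0.09 ± 0.11.

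All 11 non-ATPase subunits had estimates above 0, with a median of 0.23. Psmd12, a scaffold subunit, rose from 32.5 ± 4.24 to 40.6 ± 6.48 CPM (log2 difference 0.33 ± 0.07, edgeR adjusted p = 0.000365). Psmd1 and Psmd2, the large subunits that bind ubiquitin receptors, rose by 0.30 each (SE 0.07 and 0.08). Psmd6, Psmd7 and the deubiquitinase Psmd14 rose by 0.23, 0.29 and 0.27. The largest of these, that of Psmd12, is a change of 1.26-fold. The calls of Psmd12, Psmd1 and Psmd2 held in every fit without 1 library.

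Among the other parts of the core and cap, few members were called. Psmc4 was the only called ATPase (0.25 ± 0.09, edgeR adjusted p = 0.0284). The chaperone Psmg1 rose by 0.33 ± 0.12 (edgeR adjusted p = 0.022), and none of the structural beta subunits or 19S chaperones was called. In the alpha ring only Psma4 was called, and it fell by 0.28 ± 0.10 (edgeR adjusted p = 0.0294). Psmc3ip, the recombination factor, rose from 1.53 ± 0.756 to 2.35 ± 0.736 CPM. Of 7 subunits and assembly factors without a Psm symbol 2 rose, namely the ubiquitin receptor Adrm1 (0.59 ± 0.22) and the deubiquitinase Usp14 (0.58 ± 0.12). Pomp, the 20S maturation protein, was not called (-0.10 ± 0.15).

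Genes of MHC class I presentation fell in adenoma with the immune subunits: 8 of 10 were lower, with a median of -0.90. The peptide transporter Tap1 fell by 1.16 ± 0.26, beta-2-microglobulin (B2m) by 1.28 ± 0.14 and the heavy chain H2-K1 by 0.95 ± 0.12. Of 7 interferon regulators 5 were lower, among them Irf1 (fell by 0.67 ± 0.16). The estimates of all 7 had a median of -0.64. Many leukocytes express these genes at high levels, and in bulk tissue fewer cells of a type and less RNA per cell cannot be told apart.

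Markers of other cells also differed. Of 6 T-cell markers 2 were lower, and their summed level ranged from 5.21 to 63.4 CPM in adenoma (median 10.7) and from 11 to 58 CPM in Min mucosa (median 28.1). Of 5 myeloid markers 3 were lower, with a summed median of 103 against 149 CPM. The pan-leukocyte gene Ptprc had a log2 difference of -0.30 (edgeR adjusted p = 0.43). All 3 smooth muscle markers were lower, and 2 of 5 epithelial markers were lower. Of 10 proliferation genes 7 were higher. The part of these cells in the differences of the members was not tested.

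The background was then taken one at a time. In B6 1 member was higher and 4 lower, against 26.7% of all genes called (13% higher, 13.7% lower). In C5F1 1 was higher and 6 lower, against 20.5% (10.9% higher, 9.66% lower). In both, Psmb8, Psmb9, Psmb10 and Psme1 were lower, but most of these calls were lost in some fits without 1 library. In B6 only that of Psmb9 held in all 6 fits without 1 library. Psmb8 lost its call there without adenoma replicate 1 or 2, Psmb10 without adenoma replicate 1 or mucosa replicate 1, and Psme1 without any 1 of the 3 adenoma libraries, without mucosa replicate 1 and with DESeq2's size factors. In C5F1 that of Psme1 held in all 6, Psmb8 and Psmb9 lost theirs without adenoma replicate 3, and Psmb10 in 4 of 6 fits. The number of called members was 1 without B6 adenoma replicate 1, 2 without B6 adenoma replicate 2, 3 without B6 mucosa replicate 1, 4 without C5F1 adenoma replicate 1 and 1 without C5F1 adenoma replicate 3. The B6 adenoma libraries had 21.4, 22.5 and 48 CPM of Psmb8, and the B6 mucosa libraries 111, 70.3 and 128 CPM. In C5F1 the adenoma libraries had 40.6, 30.2 and 17.2 CPM and the mucosa libraries 117, 116 and 83.5 CPM. No adenoma library reached the lowest mucosa library in either background. The log2 differences were -1.76 ± 0.51 (edgeR adjusted p = 0.0109) in B6 and -1.84 ± 0.52 (edgeR adjusted p = 0.0109) in C5F1.

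In C5 no member was called by edgeR or by DESeq2, and 1 had an unadjusted p under 0.05, where 2.77% of all genes were called. Psmb8 stood at 134, 127 and 67.5 CPM in the mucosa libraries and at 56.1, 65.4 and 34.8 CPM in the adenoma libraries of C5. These groups did not overlap, but the log2 difference of -1.05 ± 0.50 did not pass (edgeR adjusted p = 0.384). The replicate numbers of adenoma and mucosa deviated together in C5, C5F1 and B6xPWD. With the replicate number as a block 2 members were called lower in C5, against 5.45% of all genes. These were Psmb9 (-0.92, edgeR adjusted p = 0.0333) and Psme2b (-0.73, edgeR adjusted p = 0.0157). In C5F1 the block added Psme3, which was higher. In B6xPWD 1 member was called against 16.4% of all genes (9.43% higher, 6.98% lower), the cap subunit Psmd12, which rose by 0.54 ± 0.15 (edgeR adjusted p = 0.0104). With the block 5 were called, against 24.3% of all genes: Psmd12, Psmd7 and Psme3 were higher, and Psme2 and Psme2b lower.

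B6xPWD mucosa was already low in Psmb8, at 19.9, 30.9 and 40.8 CPM, and its adenomas had 45.2, 13.2 and 18.1 CPM. The groups overlapped, and the log2 difference was -0.25 ± 0.52 (edgeR adjusted p = 0.80). The highest of these adenoma libraries, replicate 1, also had 177 CPM of Ptprc, against 13.4 and 11.1 CPM in the others, and a summed level of B and plasma cell markers of 293 CPM. Without it the estimate for Psmb8 was -0.97 (edgeR adjusted p = 0.267), that for Psmb9 moved from -0.33 to -0.92, neither was called, and the number of called members rose from 1 to 5.

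The difference of the adenoma effect between backgrounds was tested directly. No member was called for C5F1, C5 or B6xPWD against B6, where 0, 0.11 and 0.63% of all genes were called by edgeR. DESeq2 also called none, and 0, 0 and 2 members had an unadjusted p under 0.05. The largest estimate was that of Psmb9 for B6xPWD minus B6, 1.73 ± 0.70 (edgeR adjusted p = 0.278). With the replicate block it was called, as the only member, at 1.62 (edgeR adjusted p = 0.0265), against 3.85% of all genes. In B6 2 of 3 same-numbered pairs had deviations correlated above 0.1, so whether its numbers pair the libraries is undecided. These comparisons share the B6 libraries.

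**Figure D2:**
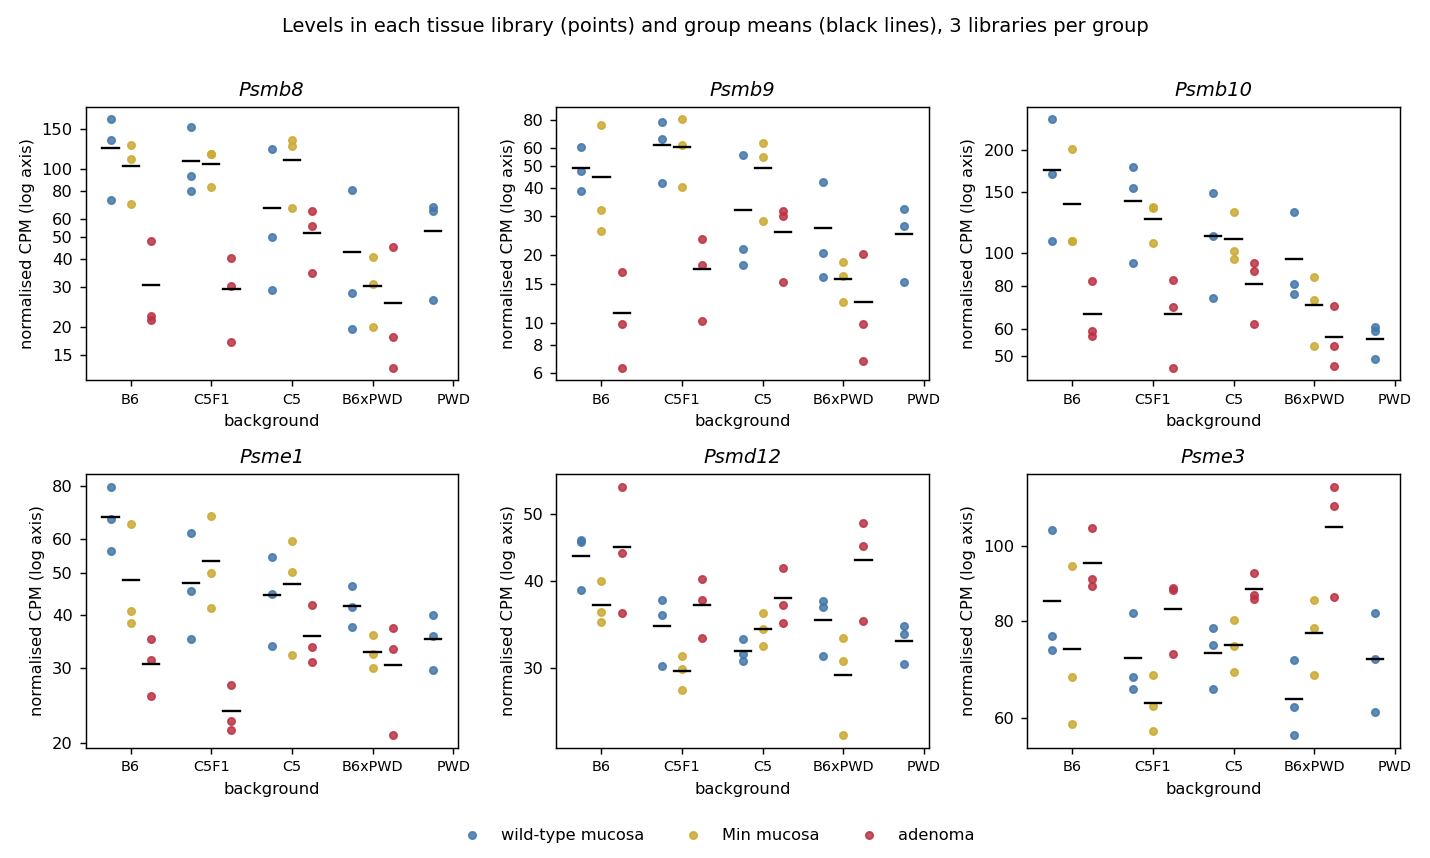
Normalised CPM (log axis) of Psmb8, Psmb9, Psmb10, Psme1, Psmd12 and Psme3 in every tissue library (points, coloured by tissue) for each background, with group means as black lines, 3 libraries per group. In B6 and C5F1 the adenoma points of Psmb8, Psmb9, Psmb10 and Psme1 lie below all Min mucosa points, while in B6xPWD they overlap.

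Min mucosa and wild-type mucosa were compared to ask whether uninvolved tissue differs already. No member was called by edgeR or DESeq2, against 0.00732% of all genes by edgeR, and 1 member had an unadjusted p under 0.05. The mean of Psmb8 was 85.9 ± 49.8 CPM over the wild-type and 87.2 ± 40.8 CPM over the Min libraries (SD, n = 12 each). The median log2 difference of the members was -0.09, with a range from -0.34 to 0.23.

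Backgrounds were compared with B6 as the mean of wild-type mucosa, Min mucosa and adenoma, n = 9 libraries on each side. All of these comparisons share the B6 libraries. Reads were aligned to a genome derived from C57BL/6, and loss of reads from PWD alleles was not measured. C5 and C5F1 carry such alleles on chromosome 5 alone. For genes with PWD alleles, lost reads and lower expression cannot be told apart. In C5 6 members were lower and 0 higher, against 18.6% of all genes called (8.35% lower, 10.3% higher). In C5F1 5 were lower and 1 higher, against 11.5% (5.62% lower, 5.91% higher). In B6xPWD 9 were lower and 3 higher, against 34.8% (16.1% lower, 18.7% higher). The share of members called was below that of all genes in C5 and B6xPWD and near it in C5F1.

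Members encoded on chromosome 5, the one that C5 takes from PWD, are the ATPase Psmc2 (chr5:21785275-21803787), the 19S chaperone Psmd9 (chr5:123228190-123250126) and the 20S chaperone Psmg3 (chr5:139823613-139826894). Psmd9 ranged from 6.08 to 11.7 CPM in C5 (median 9.11), from 7.05 to 13 CPM in C5F1 (median 11) and from 6.9 to 21.4 CPM in B6 (median 15.8). The ranges overlapped through replicate 3 of B6 wild-type and Min mucosa, at 6.9 and 10 CPM. The other 7 B6 libraries were at 14.4 CPM or above, higher than any C5 or C5F1 library. The log2 differences from B6 were -0.78 ± 0.16 in C5 (edgeR adjusted p = 0.00114), -0.54 ± 0.16 in C5F1 (edgeR adjusted p = 0.0244) and -0.42 ± 0.16 in B6xPWD (edgeR adjusted p = 0.039). Psmc2 and Psmg3 were called in none of them. In PWD wild-type mucosa Psmd9, Psmc2 and Psmg3 were not called against B6.

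The structural subunit Psmb2 (chr4:126677637-126709715) lies outside the exchanged chromosome. It ranged from 29.5 to 57.3 CPM in C5F1 (median 32.3) and from 42.7 to 103 CPM in B6 (median 88.6), and C5 lay between them at a median of 52.6 CPM. The log2 difference from B6 was -1.11 ± 0.15 in C5F1 (edgeR adjusted p = 5.14e-05), -0.55 ± 0.15 in C5 (edgeR adjusted p = 0.01) and -0.49 ± 0.15 in B6xPWD (edgeR adjusted p = 0.00986). The ubiquitin receptor Psmd4 was lower by the same test in each (-0.52 in C5, -0.56 in C5F1, -0.30 in B6xPWD), as was the scaffold subunit Psmd12 (-0.27, -0.32 and -0.25). Psmc4, an ATPase, was lower in C5 and C5F1, and Psmc6, another, was higher in C5F1 and B6xPWD (0.31 and 0.38).

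The B6 libraries numbered 3 carried more Rn45s, 44.2 to 61% against 16.4 to 38.1% in the other B6 libraries, and they held the lowest Psmb2 of each tissue (42.7, 53.6 and 58 CPM). With the Rn45s share as a covariate, chosen after seeing the data, 2 members were called in C5, 2 in C5F1 and 11 in B6xPWD. Psmd9 then lost its call in C5F1 (edgeR adjusted p = 0.215) and in B6xPWD (0.26), and Psmb2 lost its call in C5 (0.148) and B6xPWD (0.0776). Psmd12 lost its call in C5, C5F1 and B6xPWD (0.111, 0.073 and 0.0513), Psmd4 in B6xPWD (0.142), Psmc4 in C5 and C5F1 (0.0852 and 0.131) and Psmc6 in C5F1 (0.075). Without the 3 B6 libraries 7, 10 and 13 members were called.

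In the mean over tissues B6xPWD was lower than B6 in the immune subunits, while the adenomas of both overlapped. Psmb8 ranged from 13.2 to 80.5 CPM (median 28.4) in B6xPWD and from 21.4 to 166 CPM (median 72.8) in B6. It fell by 1.20 ± 0.30 on the log2 scale (edgeR adjusted p = 0.0022), and Psmb10 fell by 0.70 ± 0.17 (edgeR adjusted p = 0.00225). In Min mucosa every B6xPWD library was below every B6 library in Psmb8, at 19.9 to 40.8 against 70.3 to 128 CPM. In adenoma the ranges were 13.2 to 45.2 and 21.4 to 48 CPM, and the mean of Psmb9 was 12.4 ± 7.1 CPM in B6xPWD and 11 ± 5.4 CPM in B6. Psmb9 fell by 0.74 ± 0.28 in the mean over tissues (edgeR adjusted p = 0.0403) and Psme1 by 0.43 ± 0.14 (edgeR adjusted p = 0.0181). Without the B6 libraries numbered 3 Psmb9 was not called (-0.42, edgeR adjusted p = 0.268). Of the interferon regulators 4 of 7 were lower, and of the class I presentation genes 3 of 10 were lower and 2 higher. Without replicate 2 of B6xPWD adenoma 7 members were called in place of 12.

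Leukocyte markers also differed between these backgrounds. The summed B and plasma cell markers had a median of 7.98 CPM in B6xPWD and 35.3 CPM in B6 tissue, the T-cell markers 12.2 and 22.1 CPM, and Ptprc 13.4 and 22.7 CPM. The myeloid markers went the other way, at 301 and 113 CPM. Of single markers 1 of 5 B and plasma cell genes was called lower, none of 6 T-cell genes was called (1 had an unadjusted p under 0.05), and of 5 myeloid genes 1 was higher and 1 lower. All 3 endothelial and all 3 fibroblast markers were lower, and 4 of 5 epithelial markers were higher. The part of these cells in the lower immune subunits was not tested.

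PWD itself was available as wild-type mucosa, with 3 libraries against 3 of B6. Loss of reads from its alleles was not measured here either. Psmb10 had 60.7, 59.2 and 48.9 CPM in PWD and 170, 245 and 109 CPM in B6. All PWD libraries were below all B6 libraries, and Psmb10 fell by 1.61 ± 0.31 on the log2 scale (edgeR adjusted p = 0.000298). Psme1 had 39.9, 35.6 and 29.7 CPM in PWD and 67.1, 79.7 and 56.5 CPM in B6, which did not overlap, and it fell by 0.93 ± 0.25 (edgeR adjusted p = 0.00735). Psmb8 did not pass (-1.21 ± 0.51, edgeR adjusted p = 0.0941), at 67.8, 65.4 and 26.3 CPM against 135, 166 and 72.8 CPM.

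Those were the 2 members called in PWD, against 18.7% of all genes (9.96% higher, 8.79% lower). The number was 1 without replicate 2 and 9 without replicate 3 of B6 wild-type mucosa. Psmd9 of chromosome 5 was not called. Its log2 difference was -0.50 without the B6 libraries numbered 3 (edgeR adjusted p = 0.18). With the Rn45s share as a covariate it was 0.07 (edgeR adjusted p = 0.913). Of the interferon regulators 4 of 7 were lower in PWD, with a median log2 difference of -0.84, beside 0.00 over all genes. Of the B and plasma cell markers 3 of 5 were lower in PWD and of the myeloid markers 3 of 5 higher, and their part was not tested.

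**Figure D3:**
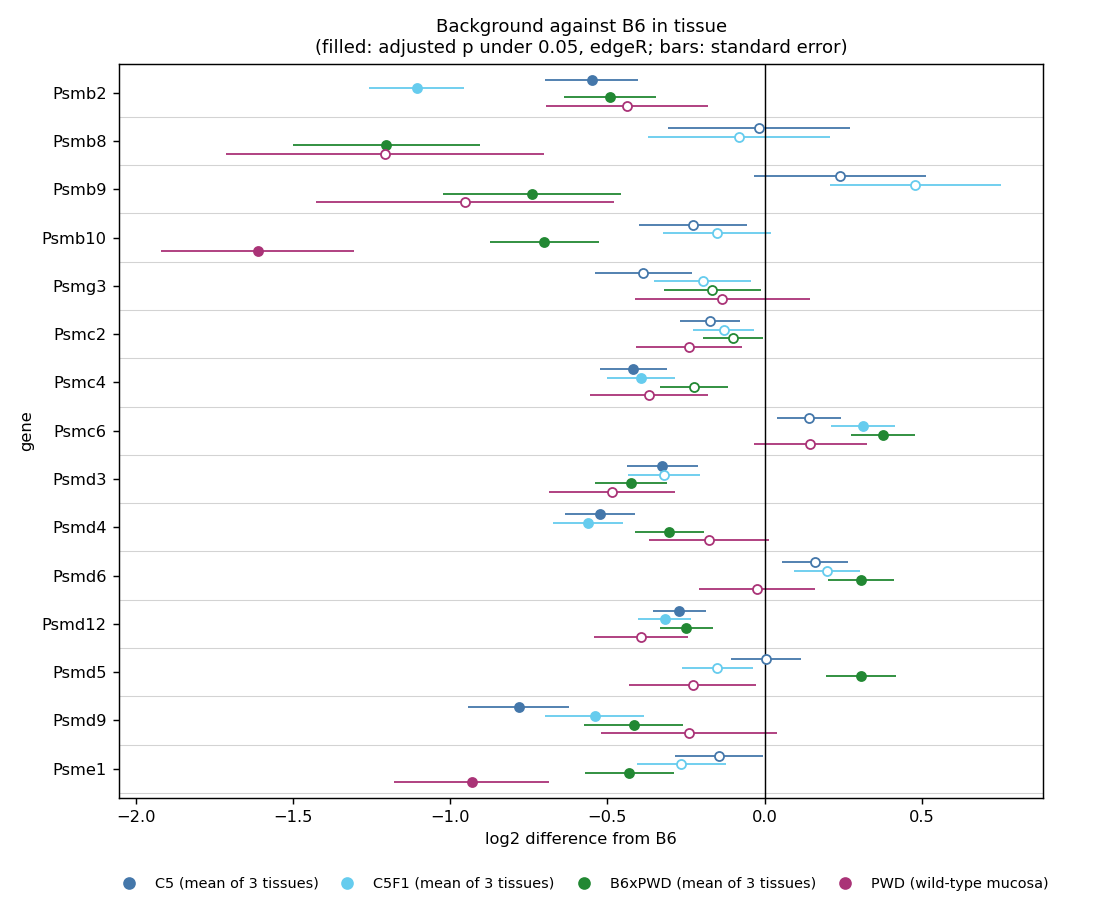
Log2 difference from B6 for members called in any background and for Psmc2 and Psmg3 (rows), as the mean of 3 tissues for C5, C5F1 and B6xPWD and in wild-type mucosa for PWD; bars are standard errors and filled points an edgeR adjusted p under 0.05. Psmb2 stands lowest in C5F1 at -1.11, and Psmb8, Psmb9 and Psmb10 lie left of zero in B6xPWD and PWD.

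Control organoids were compared with Min mucosa of B6 and C5, both of APC min genotype, to see which members differ between cultures and whole mucosa. Whether the organoids were grown from mucosa or from adenoma is not stated in the labels. The immune catalytic subunits were far lower in organoids, while all 7 alpha subunits and all 6 ATPases were higher. Of 48 members 31 were higher and 11 lower, against 73.8% of all genes called, 32.8% higher and 41% lower. The median log2 difference was 0.56 over the members and -0.18 over all genes. With DESeq2's size factors the median of all genes was -0.31 and that of the members 0.43, and 23 were higher and 13 lower. Psma5, Psmb6, Psmc2, Psmc4, Psmc5, Psmd5, Psme2 and Psmg3 kept a positive estimate there but lost their calls.

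Psmb8 had 1.25, 1.98, 5.64 and 1.28 CPM in the 4 control organoid libraries, against 70.3 to 128 CPM in B6 and 67.5 to 134 CPM in C5 Min mucosa. The groups were far apart, and Psmb8 fell by 5.52 ± 0.53 on the log2 scale (edgeR adjusted p = 1.24e-11). Psmb9 had 2.42, 0.515, 0.693 and 1.21 CPM against a mean of 46.7 ± 21 CPM (n = 6), and fell by 5.27 ± 0.51 (edgeR adjusted p = 1.29e-11). Psmb10 was less far apart, at 11.2, 11.6, 14.4 and 9.13 CPM against 124 ± 39.1 CPM, and fell by 3.43 ± 0.28 (edgeR adjusted p = 2.11e-13). The constitutive Psmb7 was higher at 111 ± 12.7 against 51.3 ± 6.49 CPM (1.10 ± 0.12, edgeR adjusted p = 2.42e-10).

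The PA28 subunits did not share the size of that difference. Psme1 was at 36.5 ± 3.78 CPM in organoids and 47.7 ± 12.9 CPM in mucosa (-0.40 ± 0.18, edgeR adjusted p = 0.046), a call lost in 6 of 10 fits without 1 library. Psme2 was higher by 0.75 and Psme2b lower by 1.91 (-1.91 ± 0.33), so the near-identical copies went opposite ways and no direction is given for PA28 beta.

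The largest rise was that of the chaperone Psmg4, from 3.51 ± 0.967 to 42.1 ± 5 CPM (3.56 ± 0.25, edgeR adjusted p = 4.92e-15). The ATPase Psmc6 rose from 46.7 ± 8.3 to 242 ± 17.2 CPM (2.38 ± 0.13) and the alpha subunit Psma4 from 34.6 ± 4.17 to 171 ± 6.51 CPM (2.29 ± 0.15). Of the non-ATPase subunits 7 of 11 were higher, led by Psmd14 (1.97), Psmd1 (1.75) and Psmd12 (1.74). Psmd8, Psmd3 and Psmd13, cap subunits as well, were lower by the same test (-1.14, -0.53 and -0.46). Psmb2 and Psmb3, both structural subunits, were lower (-1.15 and -0.83), as was the inhibitor Psmf1 (-0.95).

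All 6 T-cell, all 5 myeloid and all 3 fibroblast markers were lower in organoids, and 3 of 6 T-cell genes had no count in any control organoid library. The summed T-cell markers were 0.344 to 0.751 CPM there, and Ptprc was 0 to 1.09 CPM. Of 10 proliferation genes 9 were higher. The part of leukocytes, proliferation and the Rn45s share in these differences was not tested. The class I presentation genes were lower in 8 of 10 and the interferon regulators in 7 of 7.

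**Figure D4:**
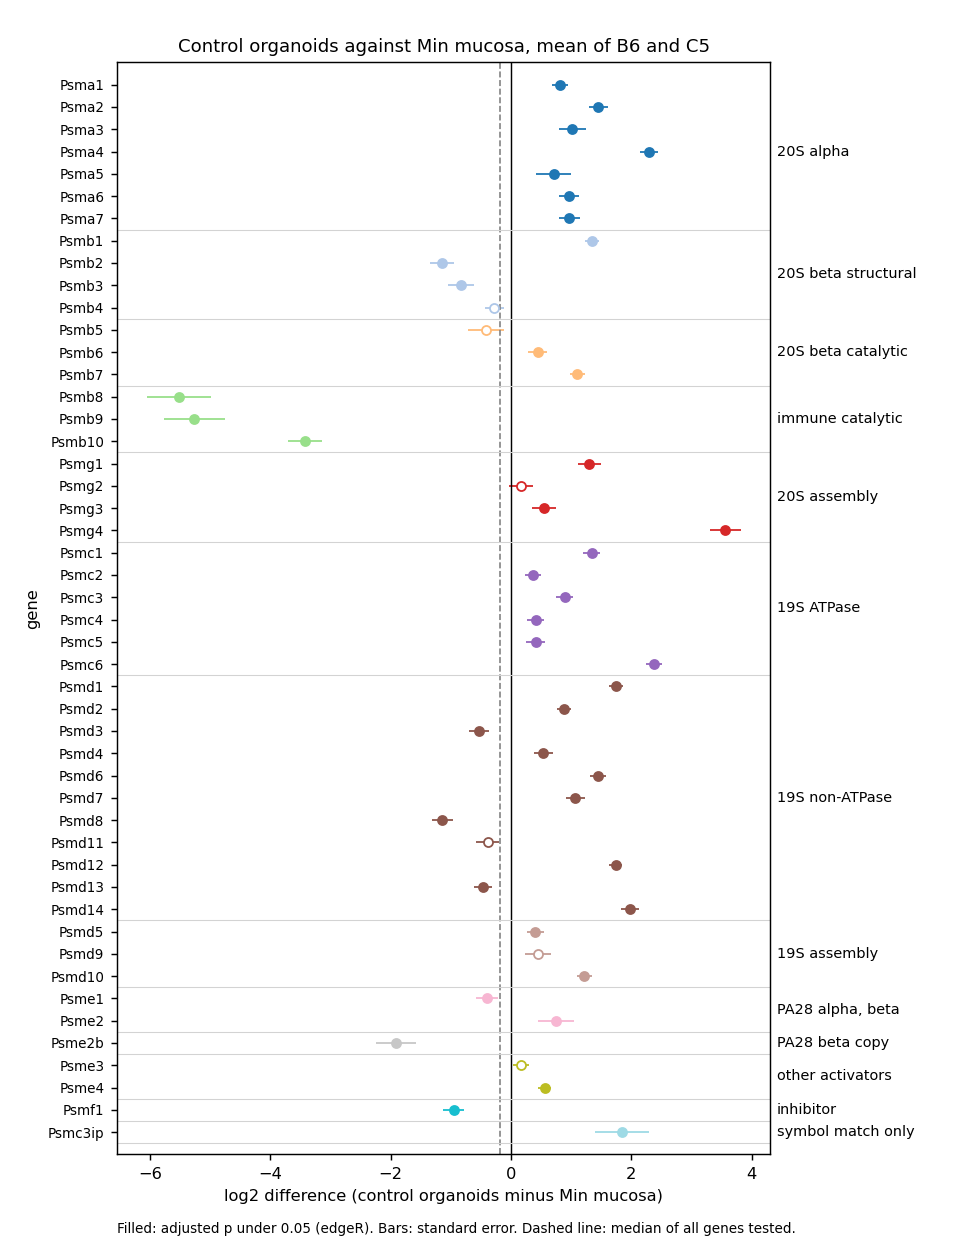
Log2 difference of control organoids minus Min mucosa, mean of B6 and C5, for each tested member (rows, grouped by role), with standard errors; filled points have an edgeR adjusted p under 0.05 and the dashed line marks the median of all genes, -0.18. Psmb8, Psmb9 and Psmb10 lie far to the left at -5.52, -5.27 and -3.43, and Psmg4 is farthest right at 3.56.

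AZA was compared with control in the organoids to ask which genes respond to the methyltransferase inhibitor. Of the members, Psmb8 and Psmb9 rose, Psmg3 fell, and 3 further members passed the test with smaller differences. Over the mean of B6 and C5, 4 of 48 members were higher and 2 lower, against 28.5% of all genes called, 15% higher and 13.5% lower. The fit did not pair control and AZA libraries by replicate number. Nothing in the labels says whether libraries of the same number share a culture. The median log2 difference was -0.03 over the members and 0.04 over all genes.

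Psmb8 had 1.25 and 1.98 CPM in B6 control and 36.4 and 26.9 CPM in B6 AZA organoids. In C5 the control libraries had 5.64 and 1.28 CPM and the AZA libraries 15.1 and 10.7 CPM. Every AZA library was above every control library. Psmb8 rose by 3.17 ± 0.39 on the log2 scale (edgeR adjusted p = 2.47e-05, n = 4 each). The control values rest on 15, 23, 57 and 19 counts.

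Psmb9 had 2.42 and 0.515 CPM in B6 control, 6.31 and 7.67 CPM in B6 AZA, 0.693 and 1.21 CPM in C5 control, and 9.17 and 2.86 CPM in C5 AZA organoids. The groups did not overlap, although the lowest AZA and the highest control library were close. Psmb9 rose by 2.49 ± 0.57 (edgeR adjusted p = 0.00436), on 6 to 29 counts in control and 23 to 111 in AZA libraries. Psmb10 did not follow them, at 11.6 ± 2.15 CPM in control and 10.5 ± 3.18 CPM in AZA organoids (-0.08 ± 0.29, edgeR adjusted p = 0.865). The level of Psmb8 after AZA, 22.3 ± 11.6 CPM, was below the mean of B6 and C5 Min mucosa, 106 ± 30 CPM (n = 6).

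None of the constitutive catalytic subunits was called, and their log2 differences were -0.38 ± 0.45 for Psmb5, -0.03 ± 0.16 for Psmb6 and -0.04 ± 0.12 for Psmb7. The median count ratio of Psmb8 to Psmb5 was 0.312 in control and 5.08 in AZA organoids, that of Psmb9 to Psmb6 was 0.0108 and 0.0923, and that of Psmb10 to Psmb7 was 0.105 and 0.108. Psme1 (0.18 ± 0.15), Psme2 (0.42 ± 0.20) and Psme2b (0.43 ± 0.27) were not called.

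Psmg3, a 20S assembly chaperone that works as a pair with Psmg4, had 15.3 and 9.88 CPM in B6 control, 5.72 and 5.05 CPM in B6 AZA, 11.7 and 17.6 CPM in C5 control, and 4.46 and 6.09 CPM in C5 AZA organoids. All AZA libraries were below all control libraries. Psmg3 fell by 1.29 ± 0.29 on the log2 scale (edgeR adjusted p = 0.00396). An exon of Gm26938 overlaps it on the same strand. Psmg4 was not called (-0.46 ± 0.17, edgeR adjusted p = 0.0594), and Pomp, which matures the 20S core with these chaperones, rose by 0.60 ± 0.12 (edgeR adjusted p = 0.00128).

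Smaller called differences were those of the cap subunit Psmd8, from 42.6 ± 4.57 to 57.5 ± 1.05 CPM (0.50 ± 0.13, edgeR adjusted p = 0.0111), the ATPase Psmc1 (0.34 ± 0.11, edgeR adjusted p = 0.0376) and the activator Psme4. Psme4 fell by 0.42 ± 0.12 (edgeR adjusted p = 0.0156), from 173 ± 15.4 to 124 ± 13.6 CPM. The call of Psmc1 was lost in 7 of 8 fits without 1 library.

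**Figure D5:**
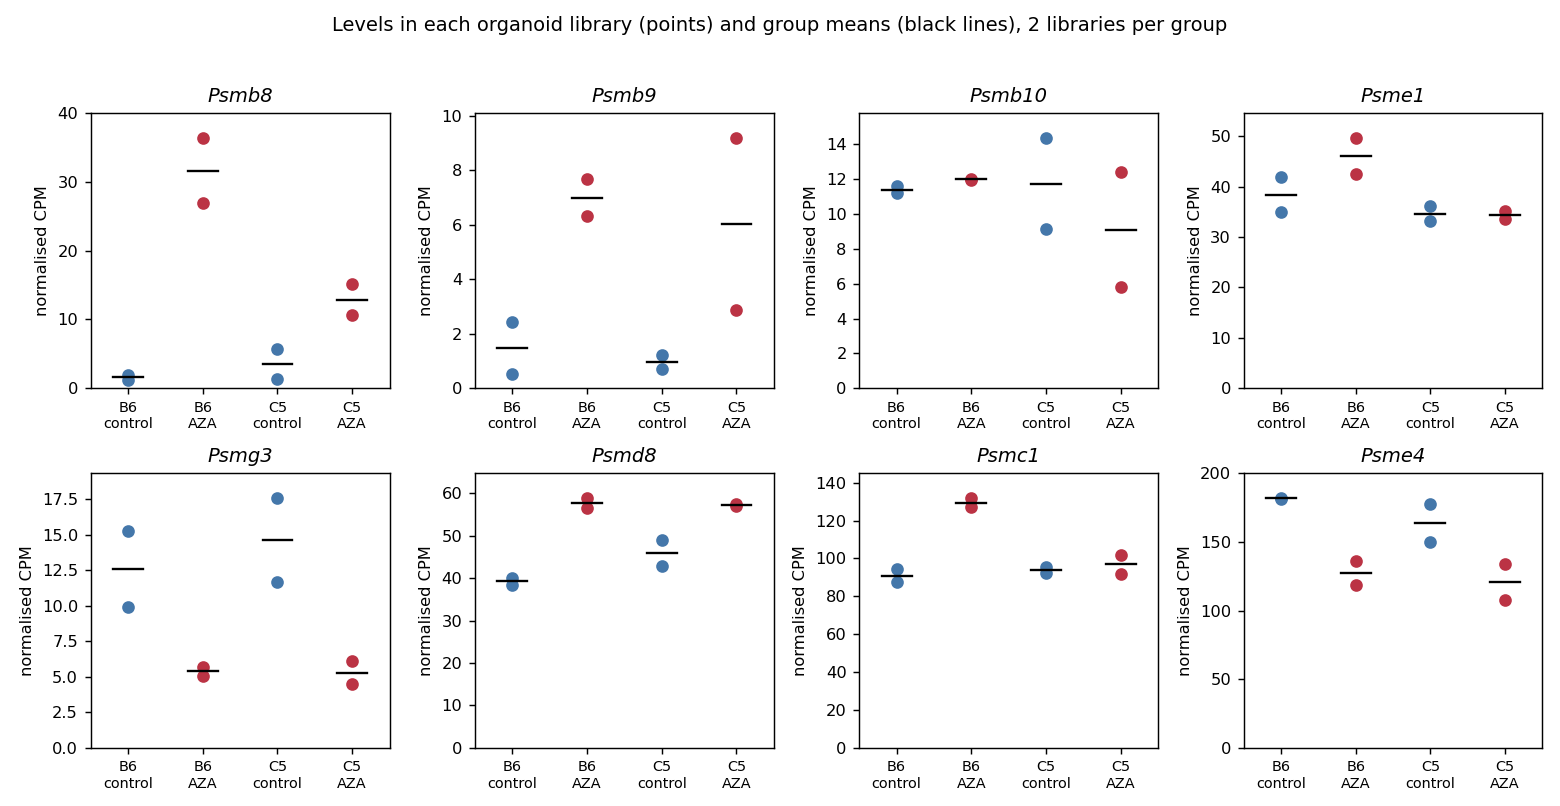
Normalised CPM of Psmb8, Psmb9, Psmb10, Psme1, Psmg3, Psmd8, Psmc1 and Psme4 in every organoid library (points), with group means as black lines, 2 libraries per group and axes starting at 0. Psmb8 and Psmb9 are higher and Psmg3 and Psme4 lower in all AZA libraries than in all control libraries, and Psmb10 overlaps.

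By background, 3 members were higher and 0 lower in B6, against 16.1% of all genes called (9.19% higher, 6.91% lower). In C5 2 were higher and 1 lower, against 14.6% (8.06% higher, 6.49% lower). Psmb8 rose by 4.32 ± 0.57 in B6 (edgeR adjusted p = 0.000123) and by 2.02 ± 0.52 in C5 (edgeR adjusted p = 0.018). In C5 the number called was 0 when the C5 libraries were fitted alone or when control replicate 4 was left out. In the test of the difference between backgrounds no gene was called (0% of all genes), 4 members had an unadjusted p under 0.05, and DESeq2 called no member either. The estimate for Psmb8 was -2.30 ± 0.75 (edgeR adjusted p = 0.999). Control organoids of C5 and B6 differed in no member by edgeR or DESeq2, against 0.209% of all genes, and 1 member had an unadjusted p under 0.05.

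In AZA organoids 7 of 10 class I presentation genes were higher, with a median log2 difference of 1.66. Tap1, whose exons overlap those of Psmb9 on the opposite strand, rose by 3.08 ± 0.28, Tap2 by 2.29 ± 0.36 and B2m by 1.71 ± 0.14. Since the strand setting is not given, the rises of Tap1 and Psmb9 are not fully separate readings. Of 6 tested interferon regulators 4 were higher, with a median of 2.08 over the 6, among them Irf7 (3.58 ± 0.45). Ptprc was 0 to 1.09 CPM in control and 0.69 to 2.23 CPM in AZA organoids. The macrophage receptor Csf1r was the only myeloid marker called higher, and the summed T-cell markers were 0.344 to 0.751 and 0.0826 to 1.58 CPM. All 10 proliferation genes were lower (median -1.18), and 3 of 5 epithelial markers were higher and 1 lower. The part of proliferation and of epithelial state in the differences of the members was not tested.

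Promoters were read for 42 members from RefSeq (GRCm38.p6), as the 250 bases before each annotated start of a gene, on both strands. Some genes had several starts, which can lie inside the gene, and a motif was counted if any of them had it. The interferon-type motif, GAAA, 2 free bases and GAAA, was present in 3 member promoters (7.14%; 3.46% of 27025 promoters), those of Psmb3, Psmd4 and Psmd9. The STAT-type motif TTCNNNGAA was in 2 (4.76%; 8.13% of all), those of Psmb8 and Psmg1. The motif of NF-kappaB type, GGG, 2 free bases and TTTCC, was in none (1.65% of all), CCAAT in 15 (35.7%; 37.5% of all) and TGANNNNGC, a short form of the antioxidant element, in 17 (40.5%; 38.7% of all).

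Windows of 30 bases are shown for Psmb8 and Psmb9, which rose together after AZA and fell together in adenoma, and for Psmb5, the constitutive partner of Psmb8, with the motif in capitals. They lie at chr17:34198088-34198117 (plus strand, STAT-type), chr17:34187331-34187360 (minus strand, CCAAT in reverse) and chr14:54618023-54618052 (minus strand, TGANNNNGC).
Psmb8: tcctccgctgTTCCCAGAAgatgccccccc
Psmb9: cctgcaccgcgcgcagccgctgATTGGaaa
Psmb5: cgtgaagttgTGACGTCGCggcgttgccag
The 3 windows hold 3 different motifs, but the promoter of Psmb9 also holds TGANNNNGC, the motif shown for Psmb5, at chr17:34187371-34187400. A match describes letters and not a bound site.

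CpG pairs, the sites of DNA methylation in these cells, were counted in the same 250 bases. For a gene with several starts the highest count was taken. Members had a median of 14.5 and all promoters a median of 6. Psmb8 had 10, Psmb9 had 12, Psmb5 had 15 and Psmb10 had 3. The promoter of Psmg3 (chr5:139826895-139827144, minus strand) had 9 and is shown because Psmg3 fell in all AZA libraries, with CpG pairs in capitals. Methylation itself was not analysed here.
Psmg3: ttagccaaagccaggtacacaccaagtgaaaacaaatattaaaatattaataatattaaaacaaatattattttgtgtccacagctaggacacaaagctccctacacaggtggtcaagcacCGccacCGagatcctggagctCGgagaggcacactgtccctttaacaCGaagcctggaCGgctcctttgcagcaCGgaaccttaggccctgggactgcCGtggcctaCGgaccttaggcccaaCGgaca
The CpG pairs lie in the part of this promoter nearer to the gene.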

How the data were processed

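The data are raw read counts per gene, deposited by the authors in a table of 47 libraries. BWA, HTSeq and the genome build mm10 are named, per the submitters' processing notes; versions, gene annotation, strand setting and the handling of reads that match several genes are not given in the sources used here. The 5 HTSeq summary rows, 40.7 to 63.5% of a library's total, were left out. The genome build derives from C57BL/6, and loss of reads from PWD alleles was not measured.

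Tissue (39 libraries, 13657 genes) and organoids (8 libraries, 13395 genes) were fitted as separate models in edgeR 4.0.16 (R 4.3.3), with 1 mean per group, TMM normalisation, filterByExpr by group (minimum count 10, minimum total 15) and the quasi-likelihood F-test. Organoids and Min mucosa were compared in a joint fit of all 47 libraries (15202 genes). The comparisons numbered 19. The threshold for a call was an adjusted p of 0.05, by Benjamini-Hochberg over every gene in the fit. CPM values are TMM-normalised over all libraries with Rn45s kept in the totals, ± is the SD between libraries unless given as SE, and means over several backgrounds pool their libraries.

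On simulated counts the adenoma comparison recovered 86.5% of 2-fold and 98% of 4-fold changes with 13 false calls among 13336 genes. The AZA comparison recovered 46.4% and 79.6% with 12 false calls among 12772 genes. In each simulation all groups had equal means but for 200 changed genes. In the real comparisons 45.2% and 28.5% of genes were called, so these rates need not hold there. Libraries of the same group were checked as possible duplicates in 43 pairs, and all differed by more than sampling noise (chi-square at least 8.06 times its degrees of freedom). Positions and transcripts are those of the mm10 reference annotation. Promoters come from RefSeq (GRCm38.p6) and were read with Biopython 1.88; they were found for 42 of 50 members.

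Members and gene lists were chosen with earlier results of these data known. One gene of the list of interferon regulators is not reported here and was left out of its counts. Up to 10 rises and 10 falls among called members with at least 5 CPM on the higher side could be named per comparison, besides the catalytic pairs, Psme1, Psme2, the chromosome 5 members and the extremes of each subcomplex; genes that are no members came from the lists. Alternatives were DESeq2's size factors and test (1.42.0), no filter on low counts, Rn45s left out, a fit of the compared groups alone, a replicate block and leaving out each library. The labels tie replicate numbers to no animal or batch. The deviations of same-numbered adenoma and Min mucosa libraries from their group means correlated at 0.323 to 0.405 in C5, 0.161 to 0.337 in C5F1 and 0.173 to 0.342 in B6xPWD, above 0.1 in all 3 pairs of each, so there the numbers were taken to pair the libraries and the blocked calls are given beside the results. The Rn45s share as a covariate and the omission of the B6 tissue libraries numbered 3 were added after seeing the data.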

Additional observations from a re-analysis of the deposited data

How the results depend on the processing

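No called result changed direction under any alternative that was run. For single members named in a comparison, 3003 calls or non-calls stayed the same when 1 library was left out, 229 lost and 14 gained a call; under the other settings 1842 stayed, 81 lost and 18 gained one. The adenoma calls of Psmb8, Psmb9, Psmb10, Psme1, Psme2, Psme2b, Psmd1, Psmd2, Psmd12 and Psme3 held in all 24 fits without 1 library, and those of Psmb8, Psmb9 and Psmg3 after AZA in all 8. The cause of the shifts below was not tested.

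Counts of called members moved as follows. Adenoma in B6 had 5, and 3 with no filter on low counts. Adenoma in B6xPWD had 1, and 2 with DESeq2's size factors or test, 0 with only the compared groups and 3 with the Rn45s share as a covariate. C5 against B6 had 6 and C5F1 against B6 had 6, and each had 2 with that covariate; without the B6 libraries numbered 3, C5F1 had 10 and PWD against B6 had 9 in place of 2. B6xPWD against B6 had 12, and 7 with only the compared groups. AZA in B6 had 3, and 9 with only the compared groups; AZA in C5 had 3, and 0.

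With 1 library left out, the counts ranged from 12 to 20 for adenoma over 4 backgrounds (18 with all), from 1 to 5 for adenoma in B6, from 1 to 5 in C5F1 (7 with all) and from 0 to 5 in B6xPWD. In B6 the number was 1 without adenoma replicate 1, 2 without adenoma replicate 2 and 3 without Min mucosa replicate 1. In C5F1 it was 4 without adenoma replicate 1 and 1 without adenoma replicate 3. In B6xPWD leaving out adenoma replicate 1 gave 5, adenoma replicate 2 gave 2, and adenoma replicate 3 or Min mucosa replicate 2 gave 0. C5F1 against B6 ranged from 3 (without B6 wild-type replicate 2) to 7, C5 against B6 from 4 to 7, B6xPWD against B6 from 7 (without B6xPWD adenoma replicate 2) to 12, and PWD against B6 from 1 (without B6 wild-type replicate 2) to 9 (without replicate 3). AZA over both backgrounds ranged from 4 to 9. AZA in B6 ranged from 1 (without AZA replicate 1 or 2 or control replicate 2) to 2, AZA in C5 from 0 (without control replicate 4) to 6 (without AZA replicate 4), and their difference from 0 to 1 (without C5 control replicate 4). Organoids against Min mucosa ranged from 37 to 43.

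Replicate numbers are shared between groups, but the labels tie them to no animal or batch. In B6 adenoma and Min mucosa 2 of 3 same-numbered pairs had a correlation of deviations above 0.1 (0.0924 to 0.185). Each of these pairs was above every differently numbered B6 pair, which reached 0.0468 at most, so pairing in B6 was left undecided. Among Min and wild-type mucosa 4 of 12 same-numbered pairs were above 0.1, and those groups were taken to share only a number. Organoid groups have 2 libraries, whose deviations mirror each other. Their same-numbered pairs therefore gave 1 value per background, -0.000994 in B6 and -0.00312 in C5. With so few libraries the check cannot decide whether control and AZA libraries of the same number share a culture. With the replicate block the called members were 9 for adenoma in B6, 2 in C5 and 5 in B6xPWD, 1 for the difference of B6xPWD and B6, 3 for C5 against B6, 3 for B6xPWD against B6 and 7 for AZA in B6. No paired analysis was possible for C5 against B6 control organoids or for organoids against Min mucosa because these groups share fewer than 2 numbers or no source. Low counts limit Psmb8 and Psmb9 in control organoids.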
